A study of Homo sapiens with 12 samples.

Results

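The HOX genes are the homeobox genes of the HOXA, HOXB, HOXC and HOXD clusters, on chromosomes 7, 17, 12 and 2. The HOX genes were chosen by name, as symbols made of HOX, a cluster letter and a number, with their antisense RNAs left out. Of 39 matching symbols, 38 are described here, and statements about the HOX genes below cover these 38. They are among 22784 symbols in the expression table. The SK-UT-1 cell line was derived from a human uterine leiomyosarcoma (uLMS), a smooth muscle tumor. RNA-seq was performed on SK-UT-1 cells given vehicle (VEH, which the study names as DMSO), 5 µM JQ1 or 5 µM I-BET 762 for 48 h. A single line under one dose and time represents the tumor. The labels describe 12 libraries, and 10 of them are analysed here, namely 3 VEH, 4 JQ1 and 3 I-BET 762 libraries. VEH 16 and I-BET 762 24 are not analysed here. The labels do not say whether libraries of a group came from separate cultures, so the spread between them may be technical.

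HOX proteins are transcription factors that bind DNA through a homeodomain, usually together with cofactors of the TALE class such as PBX and MEIS proteins. Within each cluster the genes lie in the order of their numbers. Genes with low numbers act toward the head end of the embryo and genes with high numbers toward the tail end. In the female reproductive tract, HOXA9, HOXA10, HOXA11 and HOXA13 pattern the oviduct, uterus, cervix and vagina in order, and HOXA10 and HOXA11 remain active in the adult uterus. JQ1, a thienotriazolodiazepine, and I-BET 762, a benzodiazepine, compete with acetylated histone tails for the bromodomains of the BET proteins, which sit on chromatin at active promoters and enhancers.

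In VEH cells the HOXB genes held most of the HOX expression. After JQ1, 24 of the 32 HOX genes tested were lower than in VEH and 0 were higher. After I-BET 762, 22 were lower and 0 were higher. A gene counted as lower or higher when its adjusted p was under 0.05 and its fold change over 1.5, by limma with Benjamini-Hochberg adjustment over 14839 genes tested. Across those 14839 genes, 22.8% were lower and 13.3% higher with JQ1, and 17.9% were lower and 8.96% higher with I-BET 762. The HOX family was taken up with its changes against VEH in view, so the counts and folds against VEH are a description, and no test of the family is drawn from them. At an unadjusted p under 0.05, and with limma-voom on the recovered reads, 0 HOX genes were higher with either inhibitor as well. Both comparisons use the same VEH libraries. The HOXB genes numbered 2, 3, 4 and 6, which are among the highest expressed, passed neither comparison.

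Reads on genes ranged from 35564586 to 39658989 per library. In the table, a value is log2 of the normalized count plus 1, and normalized counts are used in the text. The limit that a count of 0 allows was set at 3 reads, equal to between 2.73 and 3.30 normalized counts, and covers counting error only. Of the markers checked against the smooth muscle label, the contractile genes ACTA2, TAGLN, CNN1, DES, CALD1, SMTN and LMOD1 were present, MYOCD, ESR1 and PGR were near 0, and MYH11 was not analysed here.

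Testing required 3 or more libraries with a normalized count of 10 or higher, and 32 of the 38 HOX genes passed. The other 6 were HOXA4, HOXA9, HOXB1, HOXD1, HOXD10 and HOXD12. HOXA4 and HOXB1 had at most 3 reads in every library. Of the 32 tested genes, 9 passed only through the VEH libraries, so that a difference was built into their passing. These 9 were HOXA5, HOXA6, HOXA11, HOXC4, HOXC8, HOXC12, HOXD3, HOXD4 and HOXD11. Among the 23 genes that passed on treated libraries alone, 15 were lower with JQ1 and 14 with I-BET 762.

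**Figure D1:**
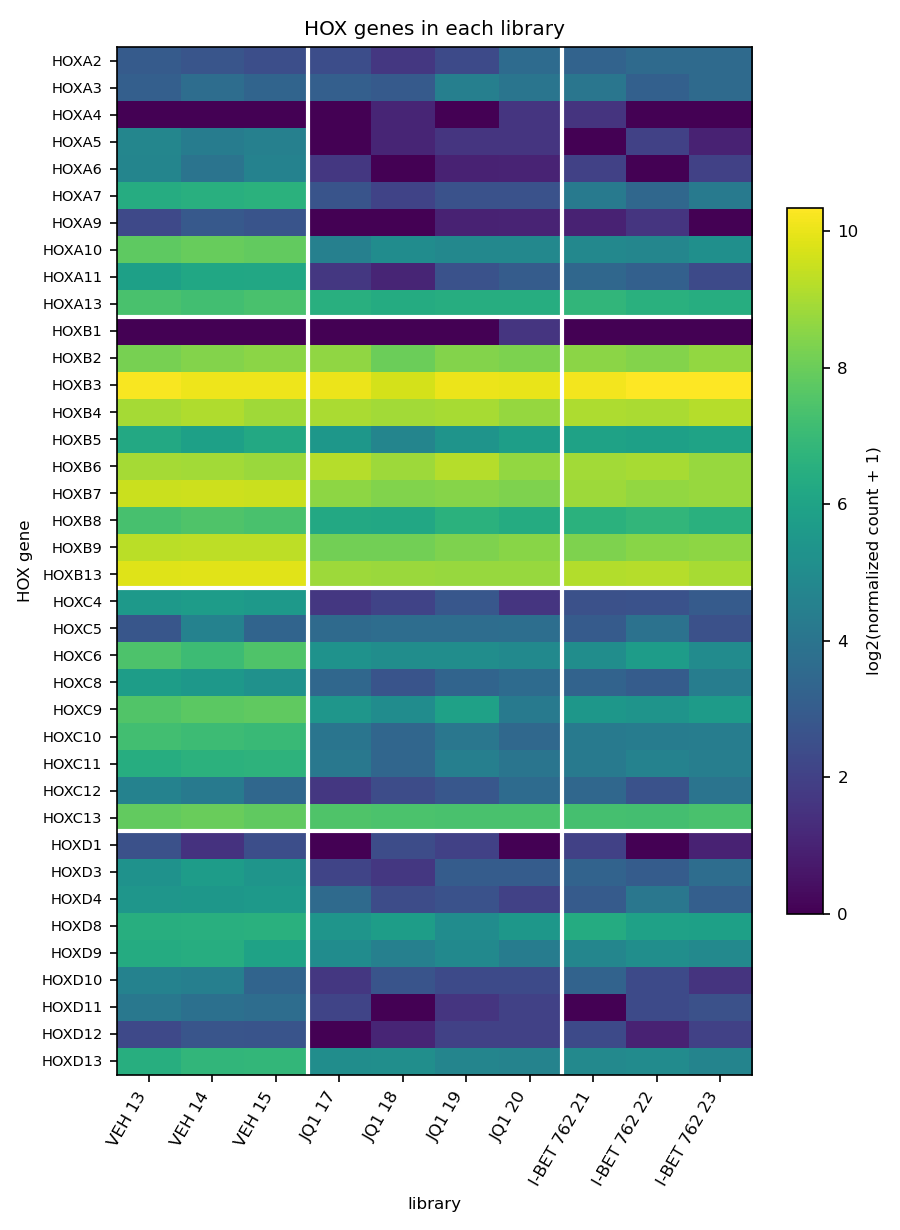
Each row is a HOX gene in cluster order, each column a library, and the color is log2(normalized count + 1). The 3 VEH columns are brighter than the treated columns for most of HOXA5 to HOXA13, HOXC and HOXD, while HOXB2, HOXB3, HOXB4 and HOXB6 look alike in all 10 columns.

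Levels of different genes were compared per length, as the normalized count per kb of annotated exon. HOXB7 was the highest HOX gene in VEH, at 487 normalized counts per kb (477 to 499 over 3 libraries). HOXB13, a posterior gene active in prostate and hindgut, followed at 308 (302 to 313). HOXB4, known for its action in blood stem cells, was at 250.5 (231 to 275), and its range overlapped that of HOXB9 at 244 (239 to 247). HOXB6 was next at 181 normalized counts per kb (170.2 to 187), then HOXB3 at 152 (145 to 165) and HOXB2 at 136 (121 to 149.7), and the ranges of HOXB3 and HOXB2 overlapped. The 7 highest genes were thus all HOXB genes. HOXC9 at 124 normalized counts per kb (110.5 to 135) was the highest HOXC gene, HOXA10 at 62.1 (59.3 to 65.1) was the highest HOXA gene, and HOXD13 at 43.2 (36.5 to 47.1) had the highest HOXD mean, with a range that overlapped those of HOXD9 at 40.7 (32.6 to 45.5) and HOXD4 at 38.6 (36.7 to 40.9).

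The order of the levels differed between the groups. With JQ1, HOXB4 at 239 normalized counts per kb (209.7 to 257) and HOXB7 at 228 (214 to 249) were highest, with overlapping ranges, and HOXB6 at 194 (153 to 224) overlapped HOXB7. With I-BET 762, HOXB7 at 280.5 (266 to 296) and HOXB4 at 272 (260.4 to 287) overlapped at the top. HOXC13 was the highest gene outside HOXB in both treated groups, at 72.0 (70.1 to 76.0) with JQ1 and 66.6 (64.2 to 70.6) with I-BET 762.

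**Figure D2:**
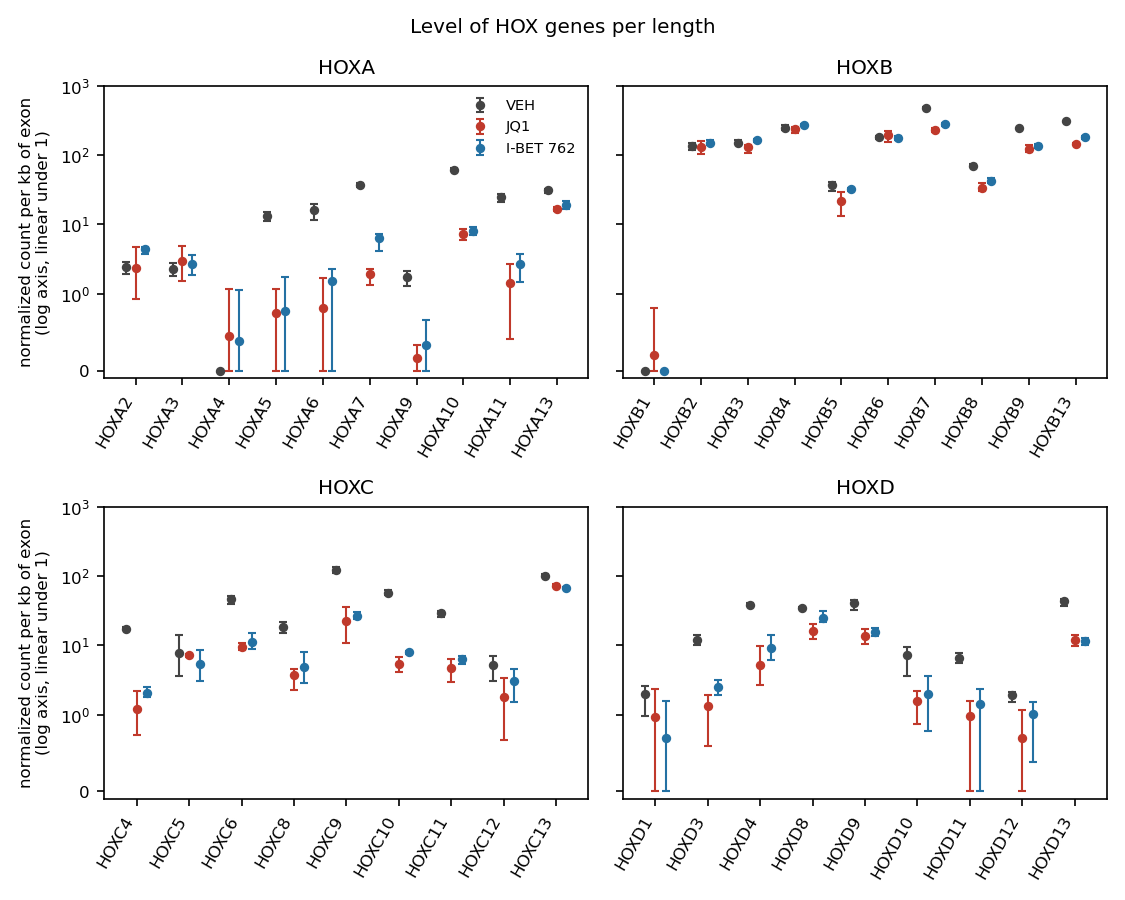
Points are the mean normalized count per kb of exon in VEH, JQ1 and I-BET 762 libraries, and bars run from the lowest to the highest library, on an axis that is logarithmic above 1 and linear under 1. HOXB2, HOXB3, HOXB4 and HOXB6 stay above 100 normalized counts per kb in each group, while HOXA7, HOXA10 and HOXC10 drop from between 37.4 and 62.1 in VEH to under 10 with both inhibitors.

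The described HOXA genes lie on the minus strand of chromosome 7 from 27100354 to 27200091 (hg38). Their summed normalized count was 597, 607 and 627 in the VEH libraries, 134, 127, 152 and 158 in the JQ1 libraries and 196, 161 and 167 in the I-BET 762 libraries. The sum with JQ1 was 23.4% of that in VEH, and with I-BET 762 28.6%. In bulk RNA, fewer expressing cells and less RNA per cell cannot be told apart. Of 8 HOXA genes tested, 6 were lower with JQ1 and 6 with I-BET 762. HOXA5, HOXA6 and HOXA11 are among these and passed testing only through the VEH libraries.

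The posterior HOXA genes differed in how far they changed. HOXA10, a regulator of uterine development and of the endometrium, had 219.9, 241 and 229 normalized counts in the VEH libraries, 22.0, 31.6, 27.0 and 27.4 in the JQ1 libraries and 27.6, 26.1 and 34.5 in the I-BET 762 libraries. All treated libraries lay far below all VEH libraries. The mean was 8.53-fold lower with JQ1, a log2 fold change of -3.06 (SE 0.17), and 7.84-fold lower with I-BET 762, a log2 fold change of -2.94 (SE 0.19). HOXA11, its neighbor and the gene of the endometrial stroma and lower uterus, had 57.1, 71.2 and 72.8 in VEH, 2.2, 1.09, 5.00 and 7.10 with JQ1 and 9.84, 8.02 and 3.94 with I-BET 762. Its mean was 17.4-fold lower with JQ1 and 9.23-fold lower with I-BET 762, and the treated libraries stood at a few reads each. HOXA13, which patterns the cervix, vagina and distal limb, had 166, 146 and 166 in VEH, 90.1, 80.5, 86.0 and 86.2 with JQ1 and 110.2, 93.2 and 85.6 with I-BET 762. Here the groups were also apart, but the change was only 1.86-fold with JQ1 (log2 fold change -0.88, SE 0.13) and 1.65-fold with I-BET 762 (-0.72, SE 0.14). HOXA9, the oviduct gene and a leukemia oncogene, was not tested. It had 3.87 to 6.47 normalized counts in VEH, and each treated library had at most 3 reads.

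In the central HOXA genes, every treated library lay below every VEH library. HOXA7, a known target of the KMT2A methyltransferase, had 84.3, 90.6 and 95.6 normalized counts in VEH, 5.49, 3.26, 5.00 and 5.07 with JQ1 and 17.7, 10.03 and 17.7 with I-BET 762. The groups formed separate levels, VEH highest and JQ1 lowest. The mean was 19.1-fold lower with JQ1, a log2 fold change of -4.01 (SE 0.29), and 5.95-fold lower with I-BET 762, a log2 fold change of -2.54 (SE 0.31). HOXA5, needed for lung development, had 26.1, 19.4 and 21.8 in VEH, 0, 1.09, 2.0 and 2.03 with JQ1 and 0, 3.01 and 0.984 with I-BET 762. HOXA6 had 25.2, 14.8 and 22.8 in VEH, 2.2, 0, 1.0 and 1.01 with JQ1 and 2.95, 0 and 2.95 with I-BET 762. Every treated library of these last genes held at most 3 reads, so that only bounds can be given, with the mean in VEH set against 3 reads per library. HOXA5 was at least 6.82-fold lower with JQ1 and at least 7.47-fold lower with I-BET 762, and HOXA6 at least 6.34-fold and 6.95-fold lower.

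The anterior HOXA genes were low in each group. HOXA2, a hindbrain and second pharyngeal arch gene, ranged from 2.18 to 11.2 normalized counts over the 10 libraries, and HOXA3 from 6.53 to 21.0. HOXA4 ranged from 0 to 2.03. All 3 I-BET 762 libraries of HOXA2 lay above VEH. HOXA2 and HOXA3 passed neither comparison, with log2 fold changes of -0.21 (SE 0.46) and 0.24 (SE 0.41) with JQ1, and 0.77 (SE 0.49) and 0.21 (SE 0.44) with I-BET 762.

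Annotated exons of HOXA7 are overlapped over 62.5% of their length by HOXA-AS3 on the opposite strand, in the Gencode V44 annotation. The libraries were strand-specific by their labels, but whether the counting used strand is not stated, so reads of the pair may have been mixed or dropped. HOXA-AS3 itself stood at 2.73 to 2.91 normalized counts in VEH and at most 1.09 in the treated libraries. The share of exon length that no other annotated gene overlaps was 73.7% for HOXA10, 72.8% for HOXA11, 98.3% for HOXA13, 59.9% for HOXA6 and 100% for HOXA5.

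Promoter sequences are shown for HOXA7, the HOXA gene with the largest fitted fold with JQ1, for HOXA10, the highest HOXA gene, for HOXA13, the HOXA gene that changed least among those lower, and for HOXD13, the HOXD gene with the highest mean per kb of exon in VEH. They run from 250 bases before to 50 after the start of the RefSeq gene in GRCh38.p14, in the direction of transcription, at chr7:27156626-27156925 (minus strand), chr7:27179812-27180111 (minus), chr7:27200042-27200341 (minus) and chr2:176092471-176092770 (plus). Capitals mark 3 motifs on either strand. They are CCAAT, the core promoter letters TATAAA, and the E-box CACGTG read by MYC and MAX.
HOXA7: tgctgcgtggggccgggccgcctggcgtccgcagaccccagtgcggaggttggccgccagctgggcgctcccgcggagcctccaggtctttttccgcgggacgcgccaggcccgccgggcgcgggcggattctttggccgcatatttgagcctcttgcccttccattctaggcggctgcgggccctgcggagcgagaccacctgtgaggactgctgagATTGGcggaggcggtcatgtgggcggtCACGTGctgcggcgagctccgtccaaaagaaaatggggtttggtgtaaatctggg
HOXA10: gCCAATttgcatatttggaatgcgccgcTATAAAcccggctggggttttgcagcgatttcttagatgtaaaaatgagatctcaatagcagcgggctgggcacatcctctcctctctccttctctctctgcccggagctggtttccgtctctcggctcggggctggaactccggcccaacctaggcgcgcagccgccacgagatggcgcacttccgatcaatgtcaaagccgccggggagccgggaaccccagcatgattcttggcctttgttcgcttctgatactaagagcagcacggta
HOXA13: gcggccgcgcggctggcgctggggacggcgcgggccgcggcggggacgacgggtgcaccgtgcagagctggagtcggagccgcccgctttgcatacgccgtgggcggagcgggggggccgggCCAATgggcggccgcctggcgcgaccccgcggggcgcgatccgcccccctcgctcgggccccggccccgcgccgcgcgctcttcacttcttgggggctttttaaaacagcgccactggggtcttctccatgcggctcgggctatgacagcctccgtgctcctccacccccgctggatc
HOXD13: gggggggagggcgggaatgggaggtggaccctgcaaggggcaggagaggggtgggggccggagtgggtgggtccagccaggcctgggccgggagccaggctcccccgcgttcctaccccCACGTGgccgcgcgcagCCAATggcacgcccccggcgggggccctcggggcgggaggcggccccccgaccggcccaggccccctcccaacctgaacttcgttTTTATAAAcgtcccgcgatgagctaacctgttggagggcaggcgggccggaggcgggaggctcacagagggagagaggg

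Of the 38 HOX genes, 20 matched a promoter in the RefSeq table, of which 9 are HOXA, 1 HOXB, 2 HOXC and 8 HOXD genes, so the shares describe mainly HOXA and HOXD. HOXC4 and HOXC5 share the same listed window. CCAAT was present in 17 of the 20 (85%), against 34.6% of all 35114 promoters of this length. CACGTG was present in 8 (40%), against 7.26% of all promoters, and TATAAA in 4 (20%), against 11.5%. The HOX promoters held a median of 22.5 CpG dinucleotides, against 14 over all promoters, at a similar median GC content of 58% against 58.7%. In these windows HOXA10 holds CCAAT and TATAAA, HOXA13 holds CCAAT only, HOXA7 holds CCAAT and CACGTG, and HOXD13 holds all of them. Whether the motifs go with the size of the change was not tested. A match is a description of letters and not evidence of a bound site.

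The HOXB genes lie on the minus strand of chromosome 17 from 48528526 to 48728750. They had 4995, 5024 and 4916 summed normalized counts in VEH, 3763, 3145, 3716 and 3394 with JQ1 and 4021, 4149.6 and 4183 with I-BET 762. The sum was 70.4% of VEH with JQ1 and 82.7% with I-BET 762. HOXB took 71.6% of the counts of the described HOX genes in VEH (71.3% to 72.1%), 86.2% with JQ1 (85.6% to 86.8%) and 86.5% with I-BET 762 (85.9% to 86.8%). Of 9 HOXB genes tested, 5 were lower with JQ1 and 4 with I-BET 762.

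HOXB genes with high numbers were lower and those with low numbers mostly were not, a division made after the values were seen. HOXB13 had 918, 950.4 and 936 normalized counts in VEH, 452, 436, 427 and 423 with JQ1 and 567, 574 and 513 with I-BET 762. HOXB9 had 618, 633 and 639.8 in VEH, 285, 284, 323 and 363 with JQ1 and 324, 366 and 380.0 with I-BET 762. In both genes the treated libraries lay below the VEH libraries with a gap wider than either group. HOXB8 had 161, 178 and 166 in VEH, 74.7, 72.9, 95.04 and 82.2 with JQ1 and 95.4, 112 and 94.5 with I-BET 762. HOXB7 had 725, 758 and 739 in VEH, 378, 333, 348 and 325 with JQ1 and 449.7, 405 and 424 with I-BET 762. The folds of these neighbors were close to each other. With JQ1 they were 2.15 for HOXB13, 2.01 for HOXB9, 2.07 for HOXB8 and 2.14 for HOXB7, with log2 fold changes between -1.10 and -1.01. With I-BET 762 they were 1.70, 1.77, 1.67 and 1.74 in the same order, with log2 fold changes between -0.82 and -0.74.

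The anterior HOXB genes kept high levels. HOXB6 had 488, 482 and 443 normalized counts in VEH, 399.6 to 582 with JQ1 and 430.2 to 501 with I-BET 762. HOXB4 had 463 to 551 in VEH, 419.9 to 514 with JQ1 and 521 to 575 with I-BET 762, and both treated groups overlapped VEH. HOXB2, a hindbrain gene, had 296 to 368 in VEH, 256 to 389 with JQ1 and 343 to 409.5 with I-BET 762. HOXB3, which also acts in the hindbrain, had 1074 to 1223 in VEH, 805 to 1060.5 with JQ1 and 1139 to 1294 with I-BET 762. The HOXB3 log2 fold change was -0.21 (SE 0.09) with JQ1 and 0.13 (SE 0.09) with I-BET 762. Every JQ1 library of HOXB3 lay below every VEH library, with an adjusted p of 0.0459 by limma, and the change fell short of the fold threshold. HOXB5 was the exception among the low-numbered genes, with 74.6, 57.3 and 75.5 in VEH, 43.95, 25.02, 40.02 and 54.8 with JQ1 and 62.0, 57.1 and 62.0 with I-BET 762. Its log2 fold change was -0.78 (SE 0.22) with JQ1 and -0.18 (SE 0.24) with I-BET 762, and without JQ1 18, its lowest library, the change with JQ1 was -0.57 and no longer passed the fold threshold. HOXB1 had 0 reads in 9 libraries and 2.03 normalized counts in JQ1 20.

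Summed over HOXB1 to HOXB6, the counts were 2572, 2504 and 2436 in VEH, 2575, 2019, 2522 and 2201 with JQ1 and 2585, 2692 and 2771 with I-BET 762, so that JQ1 and VEH overlapped. The sums were 93.0% of VEH with JQ1 and 107% with I-BET 762, and 82.0% and 100.2% once the libraries were scaled to equal totals. Summed over HOXB7 to HOXB13, they were 47.5% of VEH with JQ1 and 58.0% with I-BET 762, and 41.8% and 54.3% at equal totals. HOXB6 and HOXB3 have overlapping exons on the same strand, and 67.0% of HOXB6 exon length is unshared.

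**Figure D3:**
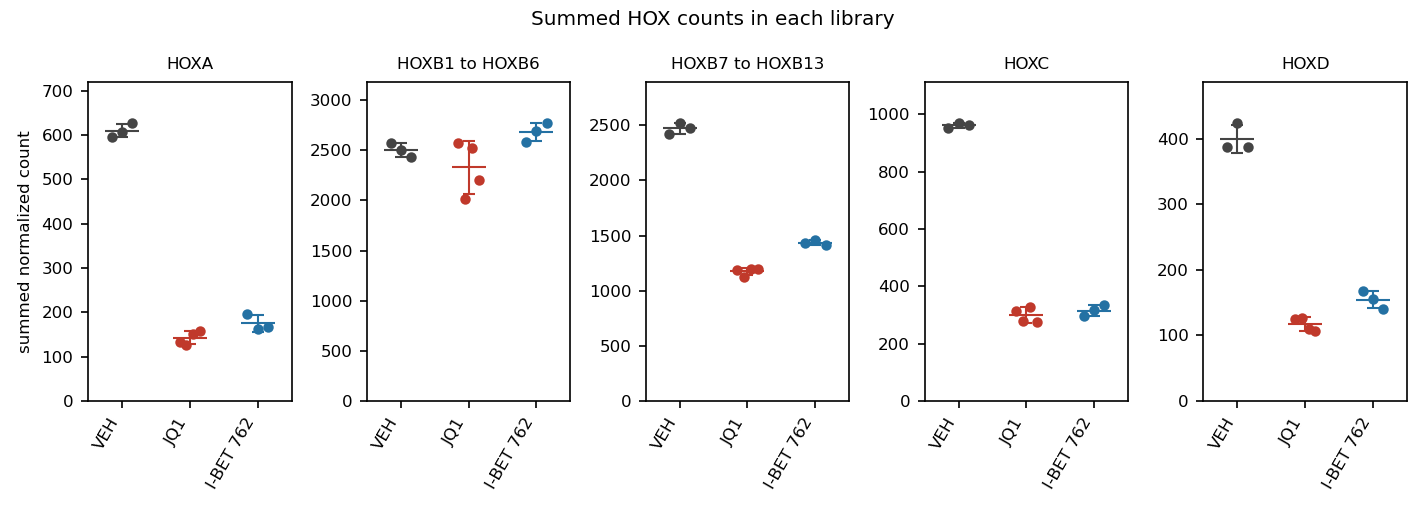
Points are the summed normalized counts of the HOX genes in each library, with the mean as a horizontal line and the SD as a bar, for HOXA, both stretches of HOXB, HOXC and HOXD; each panel has its own axis from 0. Treated libraries lie below the VEH libraries in HOXA, HOXB7 to HOXB13, HOXC and HOXD, and overlap or exceed them in HOXB1 to HOXB6.

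The HOXC genes lie on the plus strand of chromosome 12 from 53938831 to 54056030. They had 951, 969 and 964 summed normalized counts in VEH, 315, 277, 329 and 275 with JQ1 and 295, 317 and 334 with I-BET 762, which were 31.1% and 32.8% of VEH. All 9 were tested, and 7 were lower with JQ1 and 7 with I-BET 762. HOXC4, HOXC8 and HOXC12 passed testing only through the VEH libraries.

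HOXC9, HOXC10 and HOXC11 lie side by side in the cluster, and in the spinal cord HOXC9 marks thoracic and HOXC10 lumbar motor neurons. HOXC9 had 184, 212 and 226 normalized counts in VEH, 41.8, 31.6, 60.03 and 18.3 with JQ1 and 43.3, 40.1 and 50.2 with I-BET 762. HOXC10 had 148, 137 and 127 in VEH, 15.4, 9.79, 16.0 and 10.1 with JQ1 and 17.7, 19.0 and 19.7 with I-BET 762. HOXC11 had 85.2, 98.0 and 102 in VEH, 16.5, 9.79, 21.0 and 15.2 with JQ1 and 17.7, 23.1 and 20.7 with I-BET 762. No treated library reached the VEH range in any of them. HOXC10 was 10.7-fold lower with JQ1 (log2 fold change -3.35, SE 0.23) and 7.31-fold lower with I-BET 762 (-2.80, SE 0.24). HOXC9 was 5.47-fold and 4.65-fold lower, and HOXC11 6.08-fold and 4.64-fold lower.

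HOXC6 and HOXC8 act at the level of the forelimb. HOXC6 had 173, 135 and 180.2 normalized counts in VEH, 37.4, 32.6, 33.0 and 29.4 with JQ1 and 32.5, 52.1 and 30.5 with I-BET 762. HOXC8 had 53.3, 44.4 and 36.4 in VEH, 9.89, 5.44, 9.0 and 11.2 with JQ1 and 8.86, 7.02 and 19.7 with I-BET 762. HOXC4 had 46.5, 50.8 and 47.3 in VEH, 2.2, 3.26, 6.0 and 2.03 with JQ1 and 4.92, 5.01 and 6.89 with I-BET 762. Treated and VEH libraries were again apart in each of these genes. HOXC4 was 14.3-fold lower with JQ1 and 8.60-fold lower with I-BET 762, HOXC6 4.92-fold and 4.24-fold, and HOXC8 5.04-fold and 3.77-fold.

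HOXC5 lies inside the span of HOXC4 and did not pass, with 5.81, 23.1 and 9.10 normalized counts in VEH and 4.92 to 14.0 over the treated libraries. Only 32.7% of its exon length is unshared with other annotated genes, so its reads are uncertain. HOXC12 had 23.2, 17.6 and 10.01 in VEH, 2.2, 4.35, 6.0 and 11.2 with JQ1 and 9.84, 5.01 and 14.8 with I-BET 762, so that both treated groups overlapped VEH. It was called lower with JQ1 (log2 fold change -1.46, SE 0.48), and without VEH 13 this call was lost, at a log2 fold change of -1.21. HOXC13, a gene of hair and nail formation, stood at the edge of the fold threshold in both comparisons. It had 231, 251 and 226 in VEH, 179, 169, 166 and 165 with JQ1 and 154, 151 and 166 with I-BET 762. Both treated groups lay below VEH, and the change was 1.39-fold with JQ1 (log2 fold change -0.47, SE 0.10) and 1.504-fold with I-BET 762 (-0.59, SE 0.10). The call with I-BET 762 was lost without VEH 14, I-BET 762 21 or I-BET 762 22, at log2 fold changes of -0.54, -0.57 and -0.56.

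The HOXD genes lie on the plus strand of chromosome 2 from 176092721 to 176190907. They had 386, 423 and 388 summed normalized counts in VEH, 125, 126, 110.0 and 106 with JQ1 and 167, 155 and 141 with I-BET 762, which were 29.3% and 38.7% of VEH. Of 6 HOXD genes tested, 6 were lower with JQ1 and 5 with I-BET 762. HOXD3, HOXD4 and HOXD11 are among these and passed testing only through the VEH libraries.

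HOXD13, which shapes the digits and genital tubercle, had 88.1, 111 and 114 normalized counts in VEH, 33.0, 33.7, 25.0 and 23.3 with JQ1 and 28.5, 31.1 and 24.6 with I-BET 762. The ranges of the treated groups overlapped, 3.63-fold lower with JQ1 (log2 fold change -1.83, SE 0.20) and 3.71-fold lower with I-BET 762 (-1.85, SE 0.21). HOXD9 had 82.3, 85.1 and 61.0 in VEH, 31.9, 21.8, 29.0 and 19.3 with JQ1 and 25.6, 33.1 and 28.5 with I-BET 762. HOXD8 had 88.1, 90.6 and 94.6 in VEH, 40.7, 53.3, 32.0 and 43.6 with JQ1 and 81.7, 59.2 and 57.1 with I-BET 762. The I-BET 762 libraries of HOXD8 lay between the other groups, overlapping neither. HOXD8 was 2.15-fold lower with JQ1 (log2 fold change -1.11, SE 0.19), while the 1.38-fold difference with I-BET 762 (-0.48, SE 0.20) did not pass. Without I-BET 762 21, the highest of the group, that change was -0.64 and passed.

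HOXD3 and HOXD4 pattern the upper vertebrae. HOXD3 had 37.8, 51.8 and 40.95 normalized counts in VEH, 3.30, 2.18, 7.0 and 7.10 with JQ1 and 8.86, 7.02 and 11.8 with I-BET 762. HOXD4 had 41.6, 43.5 and 46.4 in VEH, 10.99, 4.35, 5.00 and 3.04 with JQ1 and 6.89, 16.0 and 7.88 with I-BET 762. HOXD3 was thus 8.89-fold lower with JQ1 and 4.71-fold lower with I-BET 762, and HOXD4 7.498-fold and 4.27-fold lower. HOXD11, which acts with HOXA11 in the forearm and kidney, had 16.5, 12.9 and 11.8 in VEH, 3.30, 0, 2.0 and 3.04 with JQ1 and 0, 4.01 and 4.92 with I-BET 762. With JQ1 every library was at or under 3 reads, so HOXD11 was at least 4.17-fold lower; with I-BET 762 it was 4.62-fold lower, a call that was lost without I-BET 762 21 at a log2 fold change of -1.42. HOXD1, HOXD10 and HOXD12 were not tested, and ranged from 1.85 to 4.84, from 9.10 to 23.2 and from 3.87 to 5.55 normalized counts in VEH and from 0 to 4.35, from 1.97 to 8.86 and from 0 to 3.94 in the treated libraries.

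**Figure D4:**
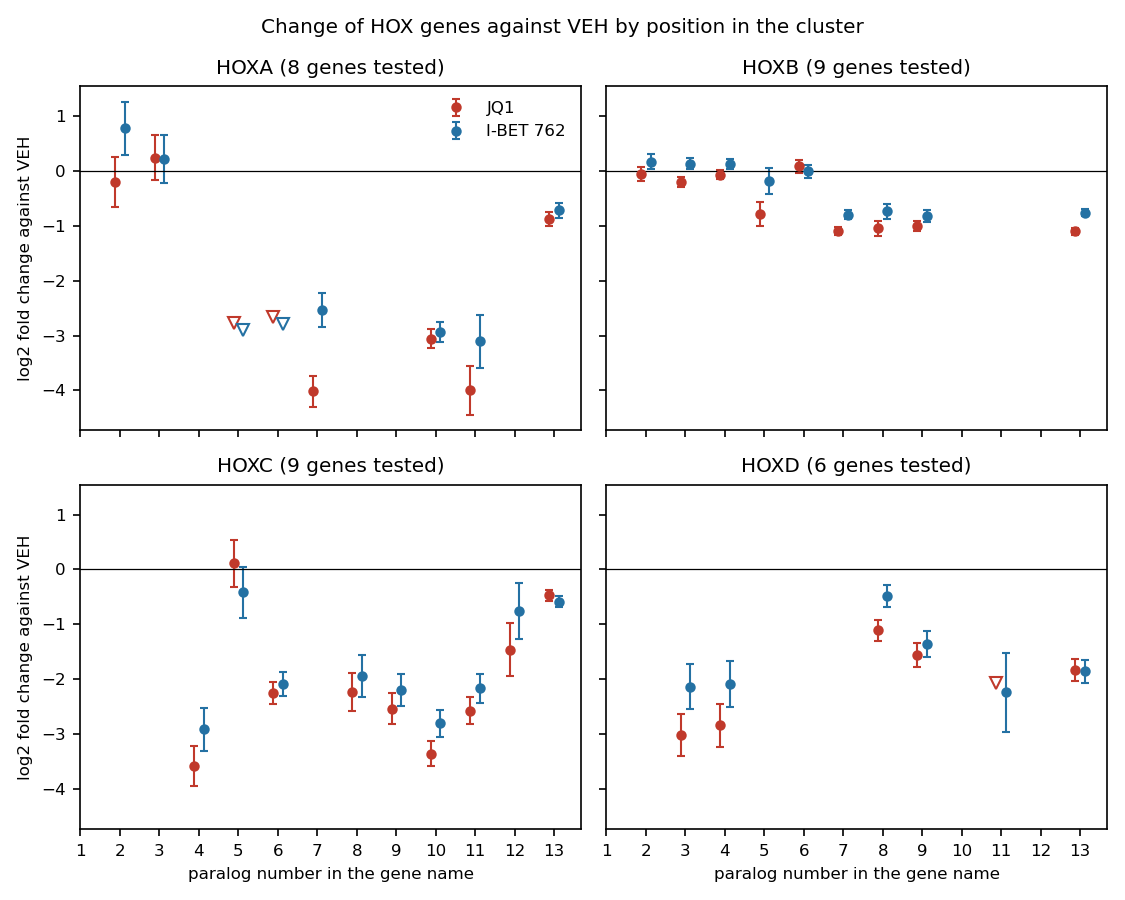
Points are the log2 fold change against VEH of each HOX gene tested, with the SE as a bar, by the number in the gene name, for JQ1 and I-BET 762. Open triangles are bounds for HOXA5, HOXA6 and, with JQ1, HOXD11, whose treated libraries held at most 3 reads. HOXA13 at -0.88 and HOXC13 at -0.47 with JQ1 lie closer to 0 than HOXA10 at -3.06 and HOXC10 at -3.35. The SE bars of HOXB13 at -1.10 and HOXB9 at -1.01 overlap, as do those of HOXD13 at -1.83 and HOXD9 at -1.55. HOXD3 at -3.02, HOXD4 at -2.83 and the bound of HOXD11 lie farther from 0 than HOXD13. With JQ1, HOXB2, HOXB3, HOXB4 and HOXB6 lie near 0, HOXB5 at -0.78 and HOXB7 at -1.10; with I-BET 762, HOXB7 lies at -0.80.

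By position, 1 of 5 tested genes of paralog groups 1 to 3 was lower with JQ1, 11 of 14 of groups 4 to 8, 9 of 9 of groups 9 to 12 and 3 of 4 of group 13. With I-BET 762 the counts were 1 of 5, 9 of 14, 8 of 9 and 4 of 4. The median log2 fold change over the 32 tested genes was -1.51 with JQ1 and -1.09 with I-BET 762, against 0.00756 and -0.000634 over all genes tested. Genes at the floor lie below these HOX medians even at their bounds, so setting them there could not move either. With JQ1 it moved the HOXA median from -3.27 to -2.72 and the HOXD median from -2.14 to -1.95. With I-BET 762 the HOXA median moved from -2.74 to -2.67. Group 13 had a median of -0.99 with JQ1 and groups 9 to 12 one of -2.54. The counts and medians by position include the 9 genes that passed only through the VEH libraries, where a difference was built in. HOXD3, the gene called lower in groups 1 to 3, is among these 9, and no gene of group 13 is.

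JQ1 and I-BET 762 were compared directly at the matched dose and time, a single pair of compounds. Of the 32 tested HOX genes, 2 were lower with JQ1 than with I-BET 762 and 0 were higher, by limma with Benjamini-Hochberg adjustment over all genes tested. Across the 14839 genes, 3.59% were lower and 1.73% higher. At an unadjusted p under 0.05, 11 HOX genes were lower and 0 higher, and limma-voom also called 2 lower and 0 higher. The share over all genes at that unadjusted p is not given here, so the count of 11 has no background beside it. HOXA7 was lower with JQ1 by a log2 fold change of -1.48 (95% interval -2.08 to -0.87, adjusted p = 0.00142), with all 4 JQ1 libraries below all 3 I-BET 762 libraries. HOXD8 was lower by -0.63 (-1.03 to -0.23, adjusted p = 0.0215), also with no overlap. The HOXD8 call was lost without I-BET 762 21, at a log2 fold change of -0.47, and without JQ1 19, at -0.51.

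Without the fold threshold, 5 HOX genes were lower with JQ1 than with I-BET 762, where 14.0% of all genes tested were. Beside HOXA7 and HOXD8 these were HOXB3 at -0.34 (-0.53 to -0.15, adjusted p = 0.0105), HOXB7 at -0.30 (-0.46 to -0.14, adjusted p = 0.00759) and HOXB13 at -0.34 (-0.48 to -0.20, adjusted p = 0.00134). In each of the 5 the JQ1 libraries all lay below the I-BET 762 libraries. In all, 8 HOX genes showed such separation, against 16.3% of all genes tested.

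For most HOX genes the inhibitors could not be told apart with these libraries. HOXA5 and HOXA6 had at most 3 reads in every treated library, and no fold is given between them. Of the other 30, 25 had a log2 fold change below 0 and 5 above, and 19 had a 95% interval that included 0. Over all genes tested, 7424 of 14839 had a log2 fold change below 0 in this comparison. HOXA10 differed by -0.12 (-0.49 to 0.25), HOXD13 by 0.02 (-0.40 to 0.44) and HOXC13 by 0.11 (-0.09 to 0.32). The bounds of all 30 intervals ran from -2.08 in HOXA7 to 1.45 in HOXC5, so differences of a considerable size remain possible for the low genes. HOXB5 at -0.60 (-1.08 to -0.13, adjusted p = 0.0582) passed without JQ1 20, at -0.76, and so did HOXA2 at -1.34, while HOXD4 passed without JQ1 17, at -1.07.

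**Figure D5:**
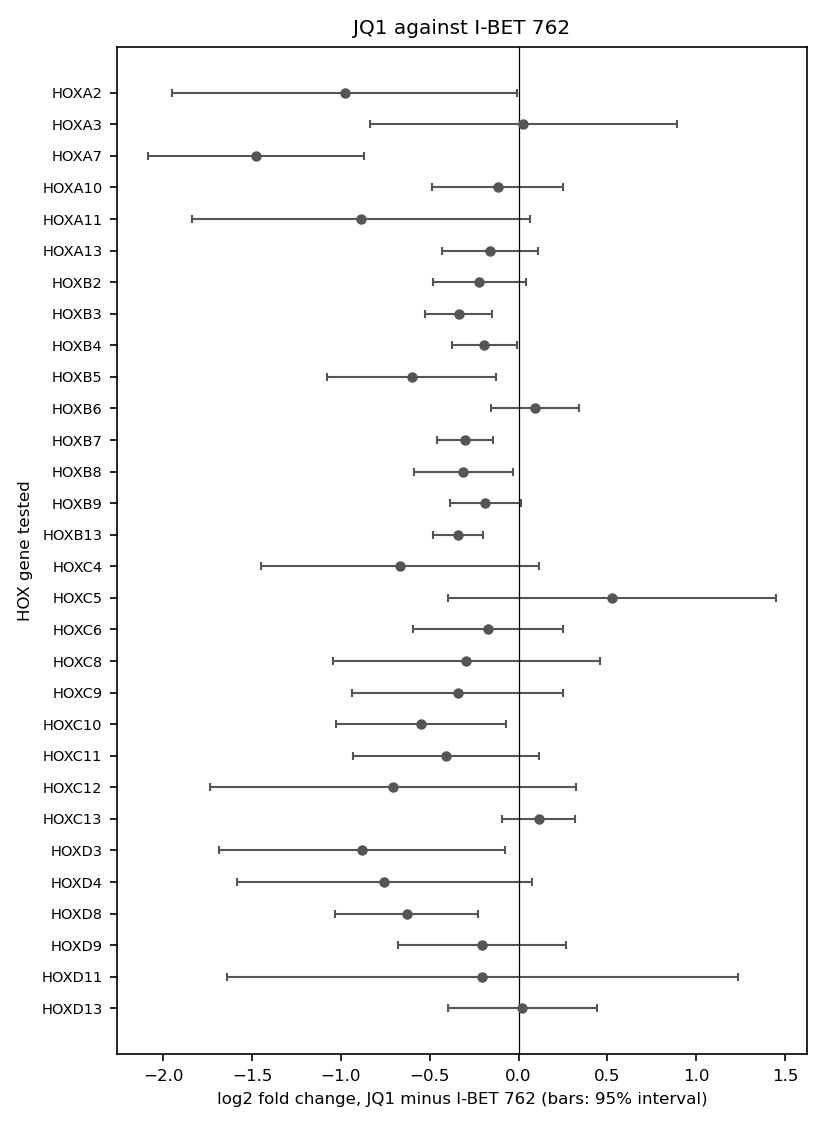
Points are the log2 fold change of JQ1 minus I-BET 762 for the 30 HOX genes tested that had more than 3 reads in some treated library, and bars are 95% intervals. HOXA7 at -1.48 stands farthest from 0, HOXD8 at -0.63 also lies clear of it, and 19 of the 30 intervals include 0.

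The other transcripts of the clusters are antisense RNAs, microRNA hosts and the small genes PRAC1 and PRAC2 between HOXB9 and HOXB13. Of 18 listed transcripts with values, 10 were tested, and 5 were lower with JQ1 and 4 with I-BET 762, with 0 higher in either comparison, also at an unadjusted p under 0.05. For this and the gene lists below, the share of all genes tested that was lower was 22.8% with JQ1 and 17.9% with I-BET 762. The share that was higher was 13.3% and 8.96%. HOTAIR, a HOXC antisense RNA known for its binding to Polycomb complexes, had 34.9, 38.8 and 35.5 normalized counts in VEH, 3.30, 3.26, 12.01 and 7.10 with JQ1 and 9.84, 10.03 and 12.8 with I-BET 762. HOXC-AS3 had 15.5 to 18.2 in VEH and at most 3 reads in each treated library, at least 5.09-fold lower with JQ1 and at least 5.58-fold lower with I-BET 762. HOXA11-AS was 3.79-fold lower with JQ1 and 2.88-fold lower with I-BET 762, and PRAC2 2.51-fold and 1.68-fold lower. HOXC-AS3 and HOXA11-AS passed testing only through the VEH libraries, so that a difference was built into their passing. Mature microRNAs of the clusters are not measured by such libraries.

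The TALE cofactors bind DNA together with HOX proteins. Of 10 listed, 8 were tested, and 4 were lower with JQ1 and 4 with I-BET 762, with 0 higher at the fold threshold and 3 and 2 higher at an unadjusted p under 0.05, by limma. The share over all genes at that unadjusted p is not given here. At an adjusted p under 0.05 alone, 5344 of 14839 genes were higher and 5289 lower with JQ1. With I-BET 762, 4434 were higher and 4639 lower. MEIS2 had 3889.5, 3615 and 3757 normalized counts in VEH, 1447, 1368, 1396 and 1456 with JQ1 and 1843, 1874 and 1845 with I-BET 762. The groups formed separate levels, VEH highest and JQ1 lowest. MEIS2 changed by -1.40 with JQ1 and -1.02 with I-BET 762, TGIF2 by -1.33 and -0.90, MEIS3 by -1.02 and -0.83, and MEIS1 by -0.96 and -0.63, each with an SE of at most 0.12. PBX3, PBX4, PKNOX1 and TGIF1 did not pass, with log2 fold changes of 0.07 to 0.44 with JQ1.

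Of the Trithorax side regulators, which keep HOX genes active, 11 were tested and 0 were lower or higher with either inhibitor at the fold threshold, by limma. KMT2A had a log2 fold change of -0.35 (SE 0.08) with JQ1 and -0.19 (SE 0.09) with I-BET 762, and at an unadjusted p under 0.05, 6 of the 11 were higher and 4 lower with JQ1 and 4 higher and 3 lower with I-BET 762. For this list and the next, the share over all genes at that unadjusted p is not given here. Even at an adjusted p under 0.05 alone, 5344 of 14839 genes were higher and 5289 lower with JQ1. With I-BET 762, 4434 were higher and 4639 lower. Of 13 tested Polycomb side regulators, which keep HOX genes silent, 3 were lower with JQ1 and 0 with I-BET 762, with 0 higher, by limma. Across all genes tested 22.8% were lower with JQ1, so this count with JQ1 was near the share over all genes. At an unadjusted p under 0.05 the Polycomb counts were 4 lower and 6 higher with JQ1, and 4 lower and 3 higher with I-BET 762. Those past the fold threshold were PHC1 at -0.83 (SE 0.09), CBX7 at -0.75 (SE 0.09) and CBX2 at -0.67 (SE 0.06). EZH2, the methyltransferase, differed by 0.28 with JQ1 and 0.12 with I-BET 762.

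Retinoic acid is a classic inducer of HOX genes. Of 11 tested genes of the retinoic acid pathway, 1 was higher and 4 were lower with JQ1, and 2 were higher and 5 lower with I-BET 762. RDH10, which makes retinal, changed by 2.10 (SE 0.08) with JQ1 and 1.35 (SE 0.09) with I-BET 762. The receptor RARG changed by -1.92 (SE 0.08) and -1.44 (SE 0.08), CYP26B1, which degrades retinoic acid, by -1.71 and -1.76, and ALDH1A3, which makes it, by -1.35 and -1.93. ALDH1A3 had a mean of 73.3 normalized counts in VEH, and ALDH1A1 of the same list 159241. ALDH1A1 did not pass, at -0.52 (SE 0.08) with JQ1 and -0.27 (SE 0.08) with I-BET 762.

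Of 14 tested homeobox genes outside the clusters, 2 were higher and 7 lower with JQ1, and 1 was higher and 7 lower with I-BET 762. EN2, DLX3 and OTX1, lower with both, passed testing only through the VEH libraries, so that a difference was built into their passing. DLX4 changed by -2.56 (SE 0.25) with JQ1 and -1.42 (SE 0.27) with I-BET 762, OTX1 by -2.41 and -2.36, and MEOX1 by -2.19 and -1.87. DLX2 was higher with JQ1 by 1.59 (SE 0.30) and differed by 0.32 (SE 0.32) with I-BET 762.

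The nearest 3 protein-coding genes on each side of each cluster were mostly not changed past the threshold. Nearest does not mean adjacent, since they lie from 8.76 kb (EVX2) to 1028 kb (NFE2L2) away, with SNX10 at 726 kb and CBX3 at 887 kb. Of these 24 genes, 21 were tested, 1 was higher and 2 lower with JQ1, and 1 was higher and 1 lower with I-BET 762. Over all genes tested, 13.3% were higher and 22.8% lower with JQ1, and 8.96% and 17.9% with I-BET 762. TTLL6, 33.5 kb beyond HOXB13, had a log2 fold change of -2.97 (SE 0.29) with JQ1 and -1.91 (SE 0.31) with I-BET 762. Farther out on that side, CALCOCO2 differed by 0.32 and ATP5MC1 by -0.50 with JQ1, and on the HOXB1 side SNX11 by -0.02 and CBX1 by -0.05. Beside HOXA, SKAP2, SNX10 and CBX3 differed by -0.43, -0.56 and -0.17, and HIBADH and TAX1BP1 by -0.19 and 0.31. Beside HOXC, CBX5, the heterochromatin protein HP1 alpha, was higher by 0.62 (SE 0.05) with JQ1 and 0.68 (SE 0.05) with I-BET 762, CALCOCO1 changed by -0.66 (SE 0.09) with JQ1, and SMUG1, HNRNPA1, ATP5MC2 and ATF7 differed by 0.04, -0.01, -0.08 and 0.26. Beside HOXD, LNPK, ATP5MC3, MTX2, HNRNPA3 and NFE2L2 differed by 0.53, 0.13, -0.36, 0.22 and 0.28 with JQ1. EVX1, EVX2 and SKAP1 were not tested. At equal totals CBX5 no longer passed with either inhibitor.

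Most of the cell type markers tested were lower with both inhibitors. Of 7 tested smooth muscle genes, 6 were lower with JQ1 and 6 with I-BET 762. SMTN was the exception and did not pass, with log2 fold changes of 0.19 (SE 0.07) with JQ1 and 0.20 (SE 0.08) with I-BET 762. DES had a log2 fold change of -4.63 with JQ1 and -3.16 with I-BET 762, TAGLN of -3.67 and -3.34, CNN1 of -3.58 and -2.70, and LMOD1 of -2.12 and -1.71. Summed over 10 smooth muscle and uterine markers, the VEH libraries had 20502 to 21138 normalized counts, the JQ1 libraries 10664 to 11271 and the I-BET 762 libraries 11823 to 12374. Of 8 markers of epithelial, endothelial and immune cells, 3 were tested, and EPCAM, KRT8 and KRT18 had log2 fold changes of -1.20, -0.69 and -0.62 with JQ1, which passed. These 8 summed to 478 to 536 in VEH, 277 to 343 with JQ1 and 317 to 348 with I-BET 762, with PTPRC at 0 in VEH and with JQ1. The part of these changes in the HOX values was not tested.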

How the data were processed

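RNA of SK-UT-1 cells was sequenced from strand-specific TruSeq total RNA libraries. Per the study's methods and the submitters' processing notes, the authors checked reads with FastQC 0.73, trimmed them with Trimmomatic, aligned them to hg38 with HISAT2 2.2.1, counted them with featureCounts 2.0.3 on Gencode V41, left out outlier samples and normalized with DESeq2. In the deposited table a value is log2(normalized count + 1), from 0 to 20.48. The counting strand setting is not given in the sources used here.

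From the value of 1 read, 99.7% to 99.8% of values per library were whole reads within 0.02. All 12 pairs of libraries within a group differed by more than counting error. Libraries were grouped by the treatment label. The log2 values of 14839 genes with a normalized count of at least 10 in at least 3 libraries entered a limma 3.58.1 fit (R 4.3.3) in one model of 10 libraries with an intensity trend, Benjamini-Hochberg adjustment and a fold threshold of 1.5. The fit was tested on simulated data. Gene lengths and overlaps came from Gencode V44, and promoters from RefSeq (GRCh38.p14). Python 3.11.15, numpy 2.4.6, pandas 2.3.3 and matplotlib 3.10.9 were used.

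The members and gene lists were chosen with earlier results of these data known. Values in every library are given for members called in any comparison and the highest member of each cluster, and of each other list at most the 4 called genes with the largest change with JQ1, apart from the genes beside the clusters and single reference genes such as KMT2A and EZH2, which were chosen after their values were seen. Some genes are not reported here. Alternatives were other pseudocounts, filters, scalings, moderation, groups, fold thresholds, limma-voom and leaving out each library.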

Additional observations from a re-analysis of the deposited data

Results flagged for a closer look

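HOXB1 was flagged because a single JQ1 library stood apart from the others of its group. JQ1 20 had 2.03 normalized counts and the other JQ1 libraries 0, so that the gap divided by the range was 1. The value rests on 2 reads, under the 3 reads that a count of 0 allows. Chance flags about 1 in 20 groups when values are continuous, and 38 groups of 4 libraries were examined. That rate does not apply to HOXB1, since ties at 0 give a ratio of 1 whenever a single library has reads.

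A set of 5 HOX genes is listed because their levels differed between JQ1 and I-BET 762 in the direct limma comparison at an adjusted p under 0.05. No fold threshold was used for this list, and only HOXA7 and HOXD8 also passed that threshold. Over all genes tested, 14.0% were lower with JQ1 at that adjusted p alone. Every JQ1 library lay below every I-BET 762 library in 16.3% of all genes tested. Their log2 fold changes, JQ1 minus I-BET 762, were -1.48 for HOXA7, -0.63 for HOXD8, -0.34 for HOXB13, -0.34 for HOXB3 and -0.30 for HOXB7, each with all 4 JQ1 libraries below all 3 I-BET 762 libraries.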

How the results depend on the processing

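Of 586 gene values recomputed under the alternatives in each comparison, 583 with JQ1, 580 with I-BET 762 and 578 in the direct comparison kept their side of the threshold, and 0 reversed among the called ones. Requiring a mean normalized count of at least 100 left fewer genes to test, with 5 HOX genes lower with JQ1, 6 with I-BET 762 and 0 in the direct comparison. The direct count of 2 became 1 with a pseudocount of 5, with no filter on low values and at a fold change over 2. HOXD8 was the gene lost in these settings. The direct count became 5 with no fold threshold, where HOXB3, HOXB7 and HOXB13 passed as well. Leaving out each library gave 23 to 24 lower with JQ1, 21 to 22 with I-BET 762 and 1 to 4 in the direct comparison. HOXC13 passed with JQ1 at equal totals, at -0.66, and fell short with I-BET 762 at a pseudocount of 5, at -0.57. Rescaling to equal totals moved the median log2 fold change of all genes to -0.18 with JQ1 and -0.097 with I-BET 762, and the share of calls that were lower from 63.1% to 77.5% and from 66.7% to 75.5%. The sums as a percent of VEH were then 20.6 (HOXA), 62.0 (HOXB), 27.4 (HOXC) and 25.8 (HOXD) with JQ1, and 77.4 (HOXB) and 30.7 (HOXC) with I-BET 762, with HOXB at 80.6 at equal upper quartiles. Per coding length the VEH levels were 187 per kb for HOXA10, 1138 for HOXB7, 266 for HOXC9 and 101 for HOXD13, and HOXD8 at 105 then stood above HOXD13.

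No paired analysis was possible because the groups share no replicate number. The edgeR and DESeq2 alternatives were not run, and limma-voom was the only test run on the recovered reads. Depth limits HOXA4, HOXA9, HOXB1, HOXD1 and HOXD12, which stood at a few reads.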
